A study of Mus musculus with 9 samples.

Results

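Killer cell lectin-like receptors are C-type lectin-like membrane proteins first described on natural killer (NK) cells, and several of them also appear on CD8+ T cells after activation. The 9 receptor genes described here, Klrg1, Klrk1, Klrd1, Klrc1, Klrc2, Klre1, Klrb1c, Klri2 and Klrb1f, were taken by symbol from 37022 annotated genes with a row in both deposited tables. Each gene was represented by its transcript row of highest average signal in the gene body. The libraries hold newly made RNA of mouse CD8+ T cells given 0.2 mM 5-ethynyl uridine, an RNA label that can be biotinylated and captured, for 30 minutes. The 9 libraries formed 3 groups of 3, named Acute, Chronic and ChronicMEKi, which are taken to stand for cells stimulated acutely, cells stimulated chronically, and chronically stimulated cells whose MEK, the kinase that activates ERK, was inhibited. The stimulus, its duration, the inhibitor and its dose, and the strain, age and genotype of the mice were not given in the sources used here. The series title places the groups in a study of terminal T cell exhaustion, the dysfunction that follows persistent stimulation. Nothing in the labels says whether the 3 libraries of a group came from separate animals or cultures, so p-values measure the spread between these libraries only.

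The family works as pairs of ligand and receptor that raise or lower the threshold for killing. CD94, the product of Klrd1, joins NKG2A (Klrc1) to form an inhibitory receptor or NKG2C (Klrc2) to form an activating one, and both heterodimers read the nonclassical MHC class I molecule Qa-1, encoded by H2-T23. NKG2D (Klrk1) is an activating receptor for stress-induced MHC class I-like proteins and signals through the adaptors DAP10 (Hcst) and DAP12 (Tyrobp). Klre1 pairs with Klri1 or Klri2, Klrb1c encodes the NK1.1 antigen of NK cells, Klrb1f encodes a receptor for Clec2 proteins, and Klrg1 encodes an inhibitory receptor for cadherins that is used as a marker of terminally differentiated effector T cells. All but Klrg1 lie in the NK gene complex of chromosome 6.

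Of the 9 genes, 5 passed the filter on low values (3 or more libraries with a deposited signal of 50 or above): Klrk1, Klrd1, Klrc1, Klrc2 and Klre1. The other 4 stayed below it and were not tested. In the gene body, 4 of the 5 tested genes rose in Chronic against Acute, while 18.0% of all 15942 tested genes rose and 15.9% fell. All 5 fell in ChronicMEKi against Chronic, while 7.65% of all tested genes fell and 9.93% rose. In ChronicMEKi against Acute 2 of the 5 fell, against 11.5% of all tested genes falling and 14.4% rising. A gene is said to rise or fall where limma's Benjamini-Hochberg adjusted p was under 0.05. Klrc2 is counted in the first 2 comparisons, but it passed the filter only with the Chronic libraries, where it was high. Its differences from Chronic are therefore a description. The 3 comparisons share libraries pairwise, so each gene's values are given side by side.

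The sequences just upstream of the start sites of Klrc1, Klrc2 and Klrk1 are shown because, in both comparisons with Chronic, Klrc1 and Klrc2 had the largest log2 fold changes of the 5 tested genes and Klrk1 the smallest. Each run is taken from the 250 bases before the RefSeq start site (build GRCm38.p6, minus strand, printed 5′ to 3′ in the direction of transcription) and stops where the annotated gene begins. Capitals mark matches to TGTGGT, a RUNX motif, on either strand. The intervals are chr6:129678974-129679223 for Klrc1, chr6:129660690-129660846 for the first of 2 Klrc2 windows, of which 157 bases lie outside the annotated gene, and chr6:129623865-129624114 for Klrk1.
Klrc1: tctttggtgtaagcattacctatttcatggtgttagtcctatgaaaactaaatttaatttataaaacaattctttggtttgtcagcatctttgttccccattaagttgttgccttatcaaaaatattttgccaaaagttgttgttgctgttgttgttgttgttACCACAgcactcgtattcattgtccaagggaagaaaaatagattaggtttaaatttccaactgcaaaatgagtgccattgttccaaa
Klrc2: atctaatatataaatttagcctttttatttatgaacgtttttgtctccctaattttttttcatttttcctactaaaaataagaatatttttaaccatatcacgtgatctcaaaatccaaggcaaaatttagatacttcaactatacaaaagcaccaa
Klrk1: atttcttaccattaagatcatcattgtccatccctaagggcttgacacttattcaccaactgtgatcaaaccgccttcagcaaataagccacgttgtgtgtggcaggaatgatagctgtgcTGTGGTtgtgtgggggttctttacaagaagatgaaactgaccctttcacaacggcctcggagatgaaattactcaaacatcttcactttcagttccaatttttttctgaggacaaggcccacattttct
RUNX factors are transcription factors of the CD8 lineage. Positions count from the start site, with -1 the last upstream base, and give the leftmost base of the match. Klrc1 holds the reverse-strand match ACCACA at -87, Klrc2 holds it at -36 and at -9, inside the annotated gene and so not printed, and Klrk1 holds TGTGGT at -129. Windows were at hand for 6 of the 9 genes, 8 windows of 300 bases in all, each also taking in 50 bases past the start site. Of all 32851 RefSeq windows, 16.8% hold this motif on either strand. The AP-1 motif TGANTCA, whose factors act downstream of T cell receptor and ERK signalling, is held by 7.81% of all windows. It occurs past the start site of Klrk1, at position 18, and of Klrc2, at position 42, and not in the Klrc1, Klre1, Klrb1c or Klrb1f windows. Neither the T-box motif AGGTGT (13.7% of all windows) nor the ETS motif CCGGAA (14.9%) occurs in any of the 8. Klre1 and Klrb1c each hold 1 RUNX match, at -229 and -89, and Klrb1f holds no match to the 4 motifs. These matches describe letters only, and no binding was measured.

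CD94, the shared partner, was the most strongly transcribed of these genes per length in Chronic. Klrd1 (ENSMUSG00000030165, chr6:129591782-129598775, plus strand) had a scaled gene-body signal of 812, 777 and 989 in the Acute libraries. It had 1208, 1407 and 1414 in Chronic and 342, 275 and 315 in ChronicMEKi. No 2 groups overlapped. Klrd1 was 1.56-fold higher in Chronic than in Acute (log2 fold change 0.65, SE 0.16, limma adjusted p = 0.00438). It was 4.28-fold lower in ChronicMEKi than in Chronic (log2 fold change -2.10, SE 0.16, limma adjusted p = 3.03e-08). Its level in ChronicMEKi was also 2.73-fold below Acute (log2 fold change -1.45, SE 0.16, limma adjusted p = 2.06e-06). Fold changes are differences of log2(signal + 5), which understates those of weak genes. The rise over Acute depended on scaling: with libraries scaled to their totals it was 0.16 (limma adjusted p = 0.491) and on the deposited scale 0.17 (limma adjusted p = 0.443), settings that move the median of all genes by -0.48 and -0.47.

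NKG2A, the inhibitory partner, changed more. Klrc1 (ENSMUSG00000030167, chr6:129666015-129678973, minus strand) had a scaled gene-body signal of 147, 111 and 181 in Acute, 867, 890.1 and 1045 in Chronic, and 60.9, 50.1 and 38.5 in ChronicMEKi. Every Chronic library lay several-fold above every other library, and the 3 groups did not overlap. The signal was 6.29-fold higher in Chronic than in Acute (log2 fold change 2.65, SE 0.28, limma adjusted p = 7.99e-07) and 17.3-fold lower in ChronicMEKi than in Chronic (log2 fold change -4.11, SE 0.28, limma adjusted p = 7.93e-09). ChronicMEKi lay 2.75-fold below Acute (log2 fold change -1.46, SE 0.28, limma adjusted p = 0.000812). These 3 calls held under every alternative tried.

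NKG2C, the activating partner, moved with NKG2A at a lower level. Klrc2 (ENSMUSG00000052736, chr6:129647496-129660689, minus strand) had a scaled gene-body signal of 53.1, 33.4 and 53.7 in Acute, 383, 415 and 316 in Chronic, and 29.6, 16.97 and 30.2 in ChronicMEKi. Klrc2 reached the filter level in 5 libraries of Acute and Chronic, and it would not have passed without those of Chronic, where it was high. Its differences from Chronic are therefore given as a description. Klrc2 was 7.36-fold higher in Chronic than in Acute (log2 fold change 2.88, SE 0.40). It was 12.5-fold lower in ChronicMEKi than in Chronic (log2 fold change -3.64, SE 0.40). All 3 ChronicMEKi libraries lay below all 3 Acute ones, but this difference did not pass the test (log2 fold change -0.76, SE 0.40, limma adjusted p = 0.183). Klrc1 and Klrc2 are near copies in places: 15.9% of the 100-base windows of the spliced Klrc1 transcript used occur in Klrc2, and 12.8% of those of Klrc2 occur in Klrc1 or Klrc3. Introns, which newly made RNA also holds, were not compared. How reads shared by these genes were assigned is not given in the sources used here. The split of signal between Klrc1 and Klrc2 is therefore uncertain to an unknown extent.

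NKG2D had the highest total gene-body signal of the 9 genes in each group and the smallest changes among the tested ones in ChronicMEKi. Klrk1 (ENSMUSG00000030149, chr6:129610323-129623864, minus strand) had a scaled gene-body signal of 1279, 960.4 and 1752 in Acute, 1878, 1837 and 2212 in Chronic, and 925, 1049.8 and 876 in ChronicMEKi. The Chronic libraries lay above all others, while the ranges of Acute and ChronicMEKi overlapped. It was 2.07-fold lower in ChronicMEKi than in Chronic (log2 fold change -1.05, SE 0.17, limma adjusted p = 0.000260). It was 1.52-fold higher in Chronic than in Acute (log2 fold change 0.61, SE 0.17, limma adjusted p = 0.0111), and its difference between ChronicMEKi and Acute did not pass the test (log2 fold change -0.44, SE 0.17, limma adjusted p = 0.0694). The rise over Acute was lost on library totals (0.12, limma adjusted p = 0.636), on the deposited scale (0.13, limma adjusted p = 0.574), without the library Acute 2 (0.40, limma adjusted p = 0.0509) and without Chronic 3 (0.53, limma adjusted p = 0.0517). The difference between ChronicMEKi and Acute passed on library totals (-0.83, limma adjusted p = 0.00218), on the deposited scale (-0.79, limma adjusted p = 0.00254), on totals without ribosomal RNA-like rows (-0.61, limma adjusted p = 0.0187) and without Acute 2 (-0.71, limma adjusted p = 0.00196).

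Klre1 was weakly transcribed and varied most within Acute. Klre1 (ENSMUSG00000050241, chr6:129577905-129585827, plus strand) had a scaled gene-body signal of 99.2, 43.9 and 177 in Acute, 142, 149 and 157 in Chronic, and 44.1, 50.9 and 26.0 in ChronicMEKi. The Acute range took in the whole Chronic range. Klre1 was 3.51-fold lower in ChronicMEKi than in Chronic (log2 fold change -1.81, SE 0.46, limma adjusted p = 0.00985), a call that was lost without ChronicMEKi 3 (-1.56, limma adjusted p = 0.0530). Chronic against Acute (0.66, SE 0.46, limma adjusted p = 0.293) and ChronicMEKi against Acute (-1.15, SE 0.46, limma adjusted p = 0.0795) did not pass. The latter passed on library totals (-1.50, limma adjusted p = 0.0168), on the deposited scale (-1.47, limma adjusted p = 0.0192), on totals without ribosomal RNA-like rows (-1.30, limma adjusted p = 0.0437) and without Acute 2 (-1.69, limma adjusted p = 0.00788).

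**Figure D1:**
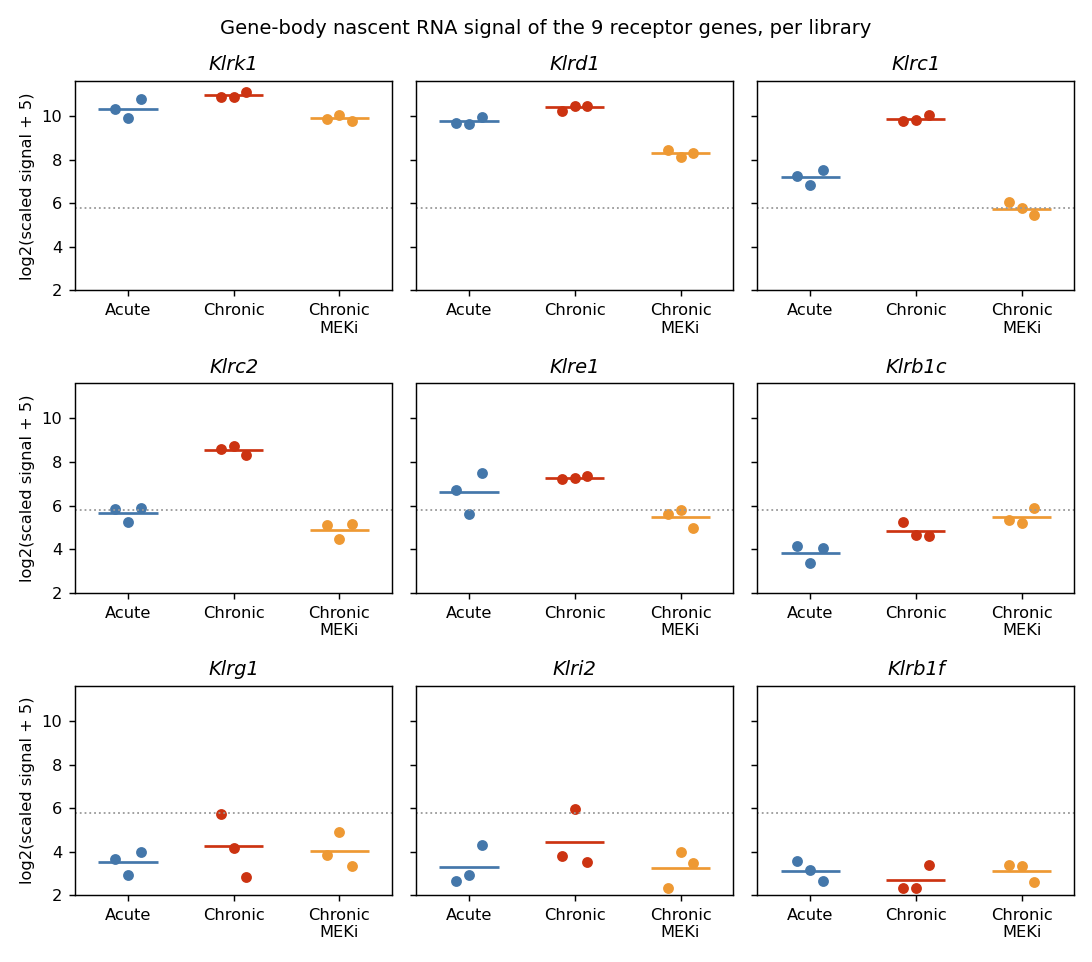
Gene-body signal of the 9 receptor genes, as log2(scaled signal + 5) on the vertical axis, in the 3 groups. Each point is 1 library, each bar a group mean, and the dotted line a signal of 50, the level of the filter on deposited values; Klrc1 and Klrc2 show Chronic far above the other groups, and the 4 genes of low signal stay near or under the line.

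The 4 genes below the filter had little signal. Klrg1 (ENSMUSG00000030114, chr6:122270596-122282882, minus strand, outside the complex) had 7.7, 2.6 and 10.9 in Acute, 47.3, 13.3 and 2.2 in Chronic, and 9.6, 25.5 and 5.2 in ChronicMEKi. This marker of terminal effector cells was therefore near the bottom of the scale in all groups, with 1 Chronic library above the rest. Klri2, a partner of Klre1, ranged from 1.3 to 14.9 in Acute, from 6.7 to 56.8 in Chronic and from 0 to 11.0 in ChronicMEKi. Klrb1f did not exceed 7.0 in any library and was listed at 0 in 2, and it overlaps Gm43992 and Gm44000 on the opposite strand. Klrb1c, the NK1.1 gene, ranged from 5.2 to 12.8 in Acute, from 19.1 to 32.7 in Chronic and from 32.2 to 54.2 in ChronicMEKi, so it was the only one of the 9 with its highest mean in ChronicMEKi. Klrb1c overlaps Gm44511 on the same strand, whose mean gene-body signal was 99.8 in Acute, 177 in Chronic and 292 in ChronicMEKi. Of the 100-base windows of the spliced Klrb1c transcript, 12.6% recur in Gm44511 or Klrb1a. No test was made for these 4 genes.

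Among the 5 tested genes the median log2 fold change was 0.66 in Chronic against Acute, -2.10 in ChronicMEKi against Chronic and -1.15 in ChronicMEKi against Acute. Over all tested genes the medians were -0.02, 0.04 and 0.00. All 5 genes lay lower in every ChronicMEKi library than in any Chronic library, which 14.4% of all tested genes did. For Klrc2 this is a description, since it passed the filter only with the Chronic libraries. The 4 to 6 annotated transcript rows of Klrk1, Klrd1, Klrc1 and Klrc2 and the 3 of Klre1 gave 1 sign within each comparison, and no call of the 5 genes changed with the mean over all rows of a gene or with the row of its longest transcript. For Klrc1 the rows spanned 2.64 to 2.67 in Chronic against Acute and -4.53 to -4.11 in ChronicMEKi against Chronic. The size for Klre1 did depend on the row: its rows spanned -1.81 to -0.66 in ChronicMEKi against Chronic and -1.15 to -0.07 in ChronicMEKi against Acute. None of the 5 overlaps another annotated gene. In bulk libraries, fewer cells transcribing a gene and less transcription per cell cannot be told apart.

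**Figure D2:**
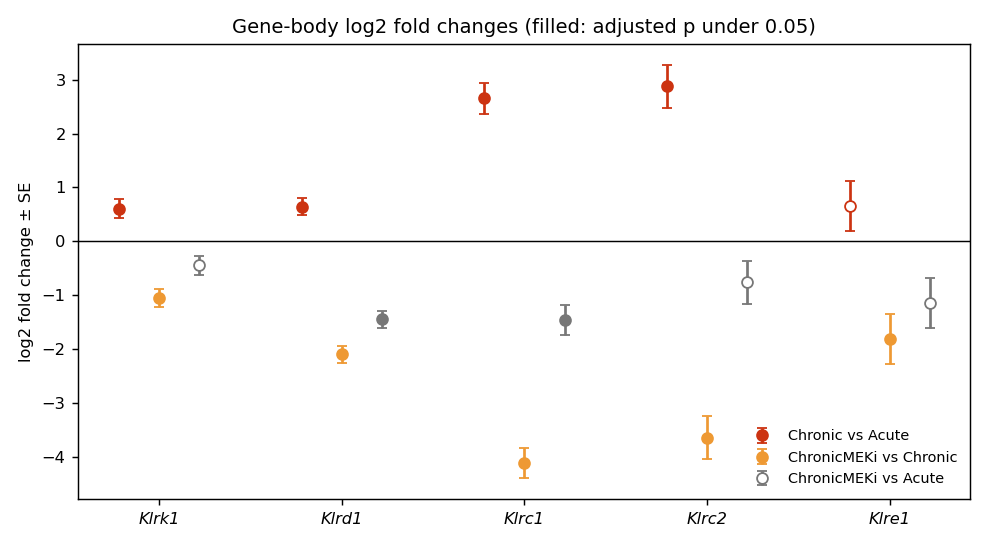
Gene-body log2 fold changes with their standard errors for the 5 tested receptor genes in the 3 comparisons. Filled points passed an adjusted p of 0.05. All 5 ChronicMEKi against Chronic points are filled and negative, with Klrc1 lowest at -4.11. Klrc2 passed the filter only with the Chronic libraries, so its points for comparisons with Chronic are a description.

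Levels were set against each other per kilobase of the annotated transcript span, since the coordinates of the counted regions are not given in the sources used here. In Acute the mean gene-body signal per kilobase was 123 ± 16.2 (SD, n = 3) for Klrd1 and 98.2 ± 29.4 for Klrk1, which overlapped. Klre1 at 13.5 ± 8.42 and Klrc1 at 11.3 ± 2.73 also overlapped, and Klrc2 was lowest at 3.57 ± 0.882. In Chronic the order was Klrd1 at 192 ± 16.7, Klrk1 at 146 ± 15.2, Klrc1 at 72.1 ± 7.49, Klrc2 at 28.4 ± 3.86 and Klre1 at 18.9 ± 0.970, with no overlap between neighbours. In ChronicMEKi Klrk1 led at 70.2 ± 6.62, followed by Klrd1 at 44.4 ± 4.82, Klre1 at 5.09 ± 1.62, Klrc1 at 3.85 ± 0.862 and Klrc2 at 1.96 ± 0.572. Only Klre1 and Klrc1 overlapped there. Klrc1 thus stood above Klre1 in Chronic alone, and Klrk1 above Klrd1 without overlap in ChronicMEKi alone.

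The CD94 partners were next related to Klrd1 itself within each library, which takes out nearly all of the library scaling. This ratio was chosen after the values were seen. In Acute the log2 ratio of Klrc1 to Klrd1 was -2.53 ± 0.19 (SD, n = 3), in Chronic it reached -0.52 ± 0.12, and in ChronicMEKi it stood at -2.54 ± 0.29. For Klrc2 to Klrd1 it was -4.08 ± 0.27, -1.85 ± 0.26 and -3.39 ± 0.25. So the signals of Klrc1 and Klrc2 were higher relative to that of Klrd1 in every Chronic library than in any other. No protein was measured. Klrk1 behaved otherwise: its log2 ratio to Klrd1 was 0.59 ± 0.26 in Acute, 0.55 ± 0.15 in Chronic and 1.60 ± 0.27 in ChronicMEKi. Klre1 to Klrd1, at -3.14 ± 0.79, -3.12 ± 0.08 and -2.84 ± 0.52, overlapped across all groups. Of 12 two-sided exact permutation tests on these ratios, the 7 without overlap each gave p = 0.1 (Benjamini-Hochberg 0.171), the smallest p that 3 against 3 libraries allow, so none could pass 0.05.

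**Figure D3:**
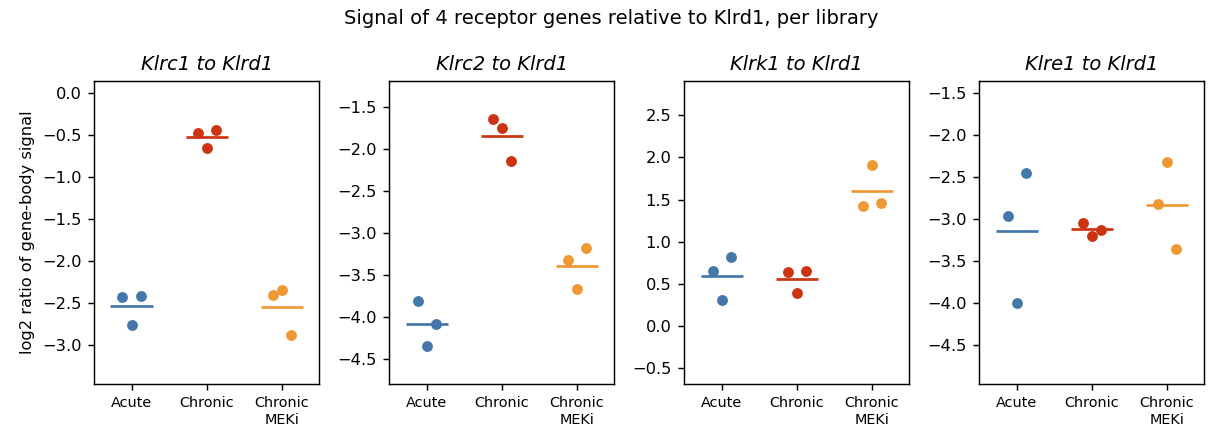
Log2 ratio of the gene-body signal of Klrc1, Klrc2, Klrk1 and Klre1 to that of Klrd1, per library (points) with group means (bars). Each panel spans the same width of log2 units; Klrc1 reaches -0.52 in Chronic against -2.53 in Acute and -2.54 in ChronicMEKi, and Klrk1 is highest in ChronicMEKi at 1.60.

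The deposited tables also hold the pause region, read as the stretch near the transcription start where polymerase can halt. Only Klrk1, Klrd1 and Klrc1 passed the filter there. Klrc1 had a scaled pause-region signal of 9.7, 30.3 and 27.7 in Acute, 97.3, 125 and 153 in Chronic, and 0.67, 3.0 and 17.2 in ChronicMEKi. Klrc1 reached the filter level in the 3 Chronic libraries alone, the group where it was high, so its differences from Chronic are given as a description: log2 fold changes of 2.32 (SE 0.70) for Chronic against Acute, where 5.37% of all 7678 genes tested there were called higher, and -3.67 (SE 0.70) for ChronicMEKi against Chronic. Klrd1 fell in ChronicMEKi against Chronic (-2.17, SE 0.57, limma adjusted p = 0.0285) and against Acute (-1.87, SE 0.57, limma adjusted p = 0.0471), directions in which 1.43% and 2.51% of all genes were called. Its values were 76.8, 37.4 and 156 in Acute, 47.1, 132 and 142 in Chronic, and 33.6, 28.7 and 3.8 in ChronicMEKi. Klrd1 reached the filter level there in 4 libraries, of Acute and Chronic only, so it passed through the groups where it was higher. How these calls fare under the alternatives was not examined. Klrk1 passed in no pause-region comparison, with log2 fold changes of 0.15, -1.04 and -0.89. The difference between pause region and gene body did not pass the test for any of the 3 genes in any comparison, nor, in limma, for any of 7413 genes (0.00% in each comparison). At an unadjusted p under 0.05 there were 749 genes in Chronic against Acute, 394 in ChronicMEKi against Chronic and 591 in ChronicMEKi against Acute, 0 of the 3 receptor genes among them. With a pseudocount of 20, 22 genes passed in Chronic against Acute (9 higher and 13 lower) and 1 in ChronicMEKi against Acute, again none of the 3. For Klrc1 that difference moved by 0.44 (SE 0.59) between ChronicMEKi and Chronic.

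The genes whose gene-body pattern lay closest to each receptor gene were found by the root mean square difference of centred log2 values over the 9 libraries, among 12134 protein-coding genes. Nearest to Klrd1 were Hbegf (0.17), an EGF-family growth factor, Cd53 (0.23), a leukocyte tetraspanin, and Plxdc2 (0.26). Nearest to Klrc1 were Tagap (0.41), a GTPase-activating protein of activated T cells, Klrc2 (0.42) and Neb (0.51), while Calcrl (0.24), Neb (0.31) and Tagap (0.33) were nearest to Klrc2. Klrc1 ranked 5 in the Klrc2 list. Nearest to Klrk1 were Arrdc4 (0.21), Gpam (0.21) and Cdkl3 (0.21), and to Klre1 Nucb2 (0.42), B4galnt3 (0.44) and Klrk1 (0.46). The libraries behind these distances are the same for all genes, and they are a description.

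In the NK gene complex, taken from the outermost Klr genes of chr6:128609227-131247362 (2.64 Mb), 15 of 43 protein-coding genes were tested. In Chronic against Acute 7 were higher and 3 lower, and in ChronicMEKi against Chronic 1 was higher and 9 lower. On library totals the first split was 3 higher and 4 lower, while the second was again 1 and 9. Over all tested genes, on the main scaling, 18.0% were higher and 15.9% lower in the first comparison. In the second, 9.93% were higher and 7.65% lower. The same shares apply to the lists below. All 5 tested receptor genes are among the 15, Klrc2 with the limit given above. Without the Klr genes, 8 tested genes remained: 2 were higher and 3 lower in Chronic against Acute, or 1 and 4 on library totals, and 1 was higher and 3 lower in ChronicMEKi against Chronic. Olr1, a lectin-like receptor for oxidised lipoprotein, had a mean signal of 3.55 in Acute, 181 in Chronic and 7.36 in ChronicMEKi. It is counted among the higher and then the lower genes, but it passed the filter through the Chronic libraries alone, so its log2 fold changes of 4.29 and -3.83 are a description. Gabarapl1, an autophagy gene, rose by 0.82 and fell by 0.92 in the same order, though its rise was lost on library totals (0.33, limma adjusted p = 0.118). Cd69, an early activation antigen, went another way: it fell by 1.28 in Chronic against Acute and by 1.28 again in ChronicMEKi against Chronic. Clec2d fell by 0.89 and Clec2i by 0.51 in Chronic against Acute, and neither passed in ChronicMEKi against Chronic.

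Of 21 further genes with a Klr symbol, 4 were tested. Klra7, a Ly49 receptor gene, rose in Chronic against Acute (0.98, limma adjusted p = 0.0128) and fell in ChronicMEKi against Chronic (-1.05, limma adjusted p = 0.0146), its rise being lost on library totals (0.50, limma adjusted p = 0.161). Klrg2, which lies outside the complex, had means of 25.6, 148 and 34.8 in Acute, Chronic and ChronicMEKi, and it too passed the filter through Chronic alone, so its log2 fold changes of 2.32 and -1.95 are a description. Klra1 and Klra13-ps passed in no comparison. Klrc3, the third NKG2 gene of the CD94 group, stayed below the filter with means of 29.9, 88.9 and 9.83 in Acute, Chronic and ChronicMEKi.

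**Figure D4:**
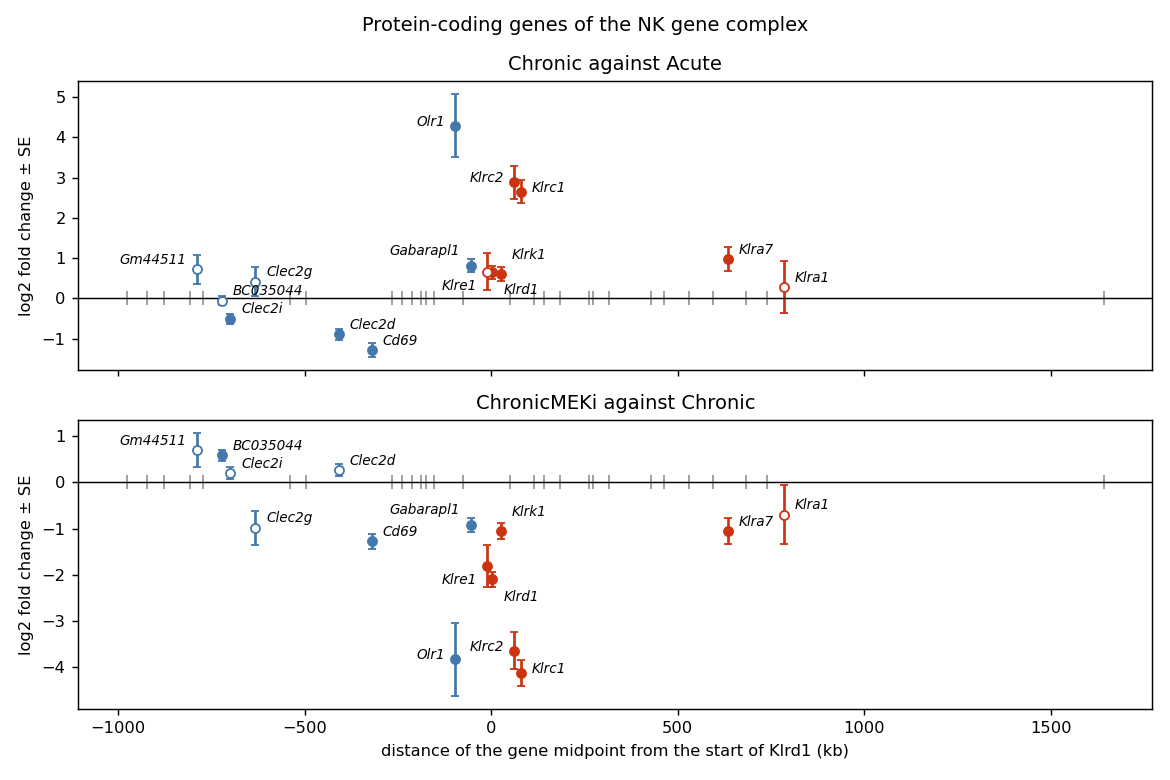
Log2 fold changes with standard errors of protein-coding genes of the NK gene complex by distance of the gene midpoint from the start of Klrd1. Klr genes are red and other genes blue, filled points passed an adjusted p of 0.05, and grey ticks on the zero line are genes below the filter; Klrc1, Klrc2 and Olr1 lie farthest from 0 in both panels.

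Of 10 tested genes of ligands of these receptors, 1 was higher and 5 lower in Chronic against Acute (median -0.70, against -0.02 over all tested genes), and 4 were higher and 0 lower in ChronicMEKi against Chronic. For NKG2D, H60b fell by 3.44 and Raet1e by 1.88 in Chronic against Acute, while Ulbp1 rose by 1.16. H60b and Raet1e overlap on the same strand, so their signals are not separate measurements. In ChronicMEKi against Chronic H60b rose by 1.38, Raet1e by 0.48 and Ulbp1 by 0.28, the last losing its call on totals without ribosomal RNA-like rows (0.27, limma adjusted p = 0.0797). Cdh1, the E-cadherin ligand of Klrg1, fell from a mean of 1026 in Acute to 15.2 in Chronic (log2 fold change -5.75, limma adjusted p = 3.56e-10) and stood at 156 in ChronicMEKi. H2-T23, the ligand gene of CD94 with NKG2A or NKG2C, passed in no comparison, with log2 fold changes of 0.19, -0.17 and 0.02 (SE 0.20 each).

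Among 19 tested adaptors and signalling genes downstream of the receptors, 1 was higher and 10 lower in Chronic against Acute (median -0.40), 5 were higher and 2 lower in ChronicMEKi against Chronic, and 1 was higher and 8 lower in ChronicMEKi against Acute. On library totals these counts were 0 and 16 (median -0.89), 6 and 1, and 0 and 14. The deposited scale gave 0 and 16, 7 and 1, and 0 and 14, and totals without ribosomal RNA-like rows gave 1 and 12 in the last comparison. Of all 15942 tested genes, library totals called 6846 lower in Chronic against Acute (median -0.50) and 4965 lower in ChronicMEKi against Acute (median -0.37). Tyrobp, encoding DAP12, had means of 81.3, 21.8 and 18.1 in Acute, Chronic and ChronicMEKi. It is counted among the lower genes in both comparisons with Acute. However, it passed the filter through Acute alone, so its log2 fold changes of -1.73 and -1.90 against Acute are a description. Hcst, encoding DAP10, had means of 154, 87.2 and 60.5 and was lower in ChronicMEKi than in Acute (-1.22, limma adjusted p = 0.0376). Lcp2, encoding the adaptor SLP-76, rose by 0.46 in Chronic against Acute, a sign that flipped on library totals (-0.03, limma adjusted p = 0.846), and fell by 1.46 in ChronicMEKi against Chronic. Ptpn6, the phosphatase SHP-1 recruited by NKG2A, passed in no comparison.

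Among 12 transcription factors of effector and NK-type programmes, 5 were higher and 5 lower in Chronic against Acute, or 4 and 7 on library totals, and 5 were higher and 6 lower in ChronicMEKi against Chronic. Zeb2, Prdm1 and Id2, factors of terminal effector differentiation, had log2 fold changes of 2.48, 2.80 and 0.55 in the first comparison and of -1.89, -1.81 and -1.24 in the second, all passing, with the Id2 rise lost on library totals (0.06, limma adjusted p = 0.744). Tcf7, a factor of stem-like T cells, fell by 2.03 and rose by 1.56. Tbx21, the T-box factor T-bet, fell by 0.27 and rose by 1.46, so it was highest where Klrc1 and Klrd1 were lowest. Eomes passed in no comparison. Runx3, which encodes a RUNX factor, did not pass in Chronic against Acute (-0.30, limma adjusted p = 0.246). It rose by 0.86 in ChronicMEKi against Chronic (limma adjusted p = 0.00671). Whether it bears on the receptor genes was not tested. Of 14 other NK-type receptor and effector genes tested, 7 were higher and 5 lower in Chronic against Acute, or 4 and 7 on library totals, and 4 were higher and 3 lower in ChronicMEKi against Chronic. Gzmk is counted among the 5 lower genes in Chronic against Acute. However, it passed the filter through Acute alone, so its log2 fold change of -1.75 is a description. Prf1, encoding perforin, rose by 4.52 and fell by 2.72, and Crtam rose by 0.88, or 0.39 on library totals (limma adjusted p = 0.0690), and fell by 1.75. Cd160, an NK-type receptor, fell by 1.24 and rose by 1.15. Zeb2, Tcf7, Eomes, Runx3, Cd160, Gzmk, Lcp2, Ptpn6, Ulbp1, H2-T23, Gabarapl1 and Clec2i each overlap a further annotated gene. Since no source used here says whether strand was counted, signal from the overlapping gene cannot be told apart.

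The labelled cell type and the presence of other cells were checked with marker genes. All 6 CD8 T cell markers were tested, with summed signal of 13566 to 15203 in Acute, 8645 to 9530.0 in Chronic and 11635 to 13499.8 in ChronicMEKi. In Chronic against Acute 0 were higher and 4 lower, or 0 and 6 on library totals. In ChronicMEKi against Chronic 3 were higher and 0 lower. Cd8a moved most, falling by 2.07 and then rising by 1.58. Cd3g (0.09 and -0.06) and Cd3d (-0.04 and 0.18) passed in neither comparison. Of 8 NK cell markers 4 were tested, and their summed signal was 1842 to 2180 in Acute, 521 to 705 in Chronic and 458 to 641 in ChronicMEKi. Most of the sum came from Txk, with means of 1713, 301 and 354, while Fcer1g had 49.4, 96.5 and 92.4. Txk overlaps Gm43717 on the opposite strand, and signal from that gene cannot be told apart. Itga2 had means of 149, 142 and 49.2. Alone of the 4 it fell in ChronicMEKi against Chronic (log2 fold change -1.50, limma adjusted p = 0.0109). Of the defining NK receptor gene Ncr1 the mean was 3.91 in Acute and 1.96 in Chronic, and it was listed at 0 in all ChronicMEKi libraries. Klra4, Klra8 and Klra9 had means of at most 14.2, each highest in Chronic. Summed B cell markers ran from 486 to 531, 168 to 205 and 149 to 417 in Acute, Chronic and ChronicMEKi, myeloid ones from 161 to 227, 112 to 171 and 90.5 to 218, dendritic ones from 222 to 316, 348 to 403 and 171 to 236, and gamma-delta T cell ones from 382 to 584, 230.4 to 362 and 448 to 507. Cd4, the only CD4 T cell marker in the tables, had means of 442, 234 and 116. The part of such cells in the receptor values was not tested.

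The deposited values are scaled, so their totals do not show sequencing depth. Gene-body signal over 1 row per gene summed to between 48601800 and 52216200 units per library. The scale factors by which it was divided were 1.17 to 1.25 in Acute, 0.820 to 0.940 in Chronic and 0.866 to 1.02 in ChronicMEKi. Pause-region signal summed to between 4886440 and 5596490 in Acute, 6782220 and 8489260 in Chronic, and 6836920 and 7499000 in ChronicMEKi. A ribosomal RNA-like locus took 19.1% to 22.3% of gene-body signal in Acute, 34.2% to 40.6% in Chronic and 29.0% to 36.1% in ChronicMEKi, which leaves a smaller share of the total for other genes in the last 2 groups. The number of reads behind a value is unknown, so no counting interval is given.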

How the data were processed

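Nascent RNA of mouse CD8+ T cells was measured in 9 libraries, 3 per group. The authors deposited scaled signal for each transcript in a gene-body and a pause-region table of 118482 rows each. These values are not read counts, so no count model was used. The submitters' processing notes name FastQC 0.12.0, Trim Galore 0.6.10, STAR 2.7.0a, SAMtools 1.19.2, deepTools 0.1.9, R 4.1.2 and build mm10. Counting regions and use of strand are not given in the sources used here. Rows were matched to GENCODE M21 by transcript identifier (117346 with version, 383 without, 753 unmatched and left out), and a gene was represented by its row of highest average signal in the gene body. No column was left unmapped.

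Libraries were scaled by trimmed means of log ratios without weights, with 30% of log ratios and 5% of levels removed per end. Genes reaching a deposited signal of 50 in 3 or more libraries entered 1 model of all 9 libraries on log2(signal + 5), fitted by limma 3.58.1 in R 4.3.3 with robust moderation and an intensity trend. Python 3.11.15, pandas 2.3.3 and SciPy 1.17.1 did the rest. All adjusted p-values are limma's, by Benjamini and Hochberg over all tested genes, with a threshold of 0.05. The model was tested on simulated data. Pausing was taken per library as log2 pause-region minus log2 gene-body signal, in the same model. Promoter windows are RefSeq's for GRCm38.p6.

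The 9 genes and all lists were chosen with earlier results of these data known. The text names the 9 genes, the 3 nearest genes by pattern for each tested one, and genes of written lists (further Klr genes, adaptors, ligands, transcription factors, other NK-type genes, the NK gene complex, cell markers); examples within lists were picked after their values were seen. Replicate numbers were not taken as pairs in the main model. Alternatives covered scaling, pseudocount, filter, row per gene, moderation, groups in the fit, a replicate block and each library left out.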

Additional observations from a re-analysis of the deposited data

How the results depend on the processing

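Over 15 member comparisons (5 genes in 3 gene-body comparisons) and 312 values under the alternatives, none changed sign, 295 kept their side of the threshold, 9 lost the call and 8 gained it. Scaling decided most of these. Klrc2 is counted throughout, though in the main setting it passed the filter only with the Chronic libraries. The number of members called in Chronic against Acute was 4, and 2 on library totals and 2 on the deposited scale; in ChronicMEKi against Acute it was 2, and 4 on library totals, 4 on the deposited scale and 4 on totals without ribosomal RNA-like rows. Leaving out 1 library gave 3 to 4 called members in Chronic against Acute, 4 to 5 in ChronicMEKi against Chronic, and 2 to 4 in ChronicMEKi against Acute, the 4 without Acute 2. On totals without ribosomal RNA-like rows Klrk1 in Chronic against Acute was 0.45 (limma adjusted p = 0.0691), and without trend and robust moderation its limma adjusted p was 0.0653. Higher and lower calls over all genes were 2875 and 2528 in Chronic against Acute, 1096 and 6846 on library totals, 1134 and 6713 on the deposited scale, and 2096 and 3759 on totals without ribosomal RNA-like rows. They were 1583 and 1219 in ChronicMEKi against Chronic, and 1769 and 741 on library totals and 1979 and 721 on the deposited scale. They were 2291 and 1827 in ChronicMEKi against Acute, then 955 and 4965, 1023 and 4542, and 1572 and 3151 in the same order. In ChronicMEKi against Chronic and against Acute library totals moved the median of all genes by 0.10 and -0.38. With no filter, more genes were tested and 1637 of them were called in ChronicMEKi against Chronic (2802 otherwise) and 2642 in ChronicMEKi against Acute (4118 otherwise). Pause-region calls in Chronic against Acute numbered 823, and 1723 on library totals, 494 with no filter, 455 with a filter of 200, and 545 to 750 with 1 library left out. In ChronicMEKi against Chronic they numbered 230, and 107 with no filter, 110 without trend and robust moderation, and 109 to 279 with 1 library left out. In ChronicMEKi against Acute they numbered 457, and 206 with no filter, 232 without trend and robust moderation, and 233 to 512 with 1 library left out. The cause was not tested. Libraries with the same replicate number deviated from their group means with correlations of -0.53 to 0.10, and the best partner in another group had the same number in 8 of 18 cases. Between Acute and Chronic alone, same-numbered libraries had correlations of 0.09, 0.10 and 0.07, and those of different numbers ran from -0.08 to -0.01. With the replicate number as a block, 5497, 2956 and 4263 genes were called in the gene body in Chronic against Acute, ChronicMEKi against Chronic and ChronicMEKi against Acute, and no call of a member changed.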

Other observations

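Several relatives of the receptor genes had too little signal for a test. Klra5, a Ly49 receptor gene, had means of 11.0, 36.3 and 8.36 in Acute, Chronic and ChronicMEKi, and Klra6 had 22.8, 37.8 and 12.4, each with the highest mean in Chronic. Klri1, which encodes the other partner of Klre1, had 9.05, 12.1 and 6.24. Klrb1b, of the same subfamily as Klrb1c and Klrb1f, had 4.13, 2.68 and 5.10. Xcr1, a chemokine receptor gene used here as a dendritic cell marker, had 6.46, 53.9 and 2.27, while Flt3, another marker of that list, had 45.9, 29.7 and 29.8. No explanation of these values was tested.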
